A study of Mus musculus with 4 samples.

Results

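The 10 genes described here encode cyclic nucleotide phosphodiesterases: Pde1c, Pde3a, Pde3b, Pde4a, Pde4b, Pde4c, Pde4d, Pde7b, Pde8b and Pde10a. They were chosen by name, among 21887 protein-coding genes, as enzymes that limit cyclic AMP (cAMP) in islet cells, with the binding data already in view. For each gene, peak summits of the homeodomain factor NKX2.2 in the gene or up to 10 kb beyond its ends were collected from a ChIP-seq experiment, in which antibody-enriched DNA is sequenced against unenriched input DNA. The experiment used alphaTC6, an established mouse line of pancreatic alpha cells that the labels give as wild type, with 2 NKX2.2 ChIP and 2 input samples. AlphaTC lines come from glucagon-producing tumours of mice with a viral T antigen transgene driven by the glucagon promoter, so they are tumour-derived models of the alpha cell. All values come from 1 deposited list of 7384 MACS2 summits (7380 of them on assembled chromosomes) without values per library. Depth is therefore unknown, no value here has a replicate error, and the markers that define an alpha cell could not be checked.

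Phosphodiesterases hydrolyse cAMP and cyclic GMP and so end the signal that adenylyl and guanylyl cyclases start. In alpha cells cAMP rises when hormones such as adrenaline or the incretin GIP bind their receptors, and it promotes glucagon release through protein kinase A and the exchange factor EPAC. The families differ in substrate and control: PDE1 is switched on by calcium and calmodulin, PDE3 binds cAMP tightly and is inhibited by cyclic GMP, PDE4, PDE7 and PDE8 are selective for cAMP, and PDE10 takes both nucleotides. Several of the genes have more than one promoter, which gives long and short forms of the enzyme.

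NKX2.2 summits lay at 7 of the 10 genes, 32 summits in all. Pde3a had 9, Pde4d 7, Pde10a 6, Pde4b 4, Pde4c 3, Pde1c 2 and Pde7b 1, while Pde3b, Pde4a and Pde8b had none. Of all protein-coding genes, 25.8% had a summit by the same rule. In the gene body alone, 6 of the 10 genes had a summit, against 13.4% of all protein-coding genes. Because the genes were picked with these counts known, and because most of them are long, neither share is evidence of an excess. The 3 most occupied genes together held 22 of the 32 summits.

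**Figure D1:**
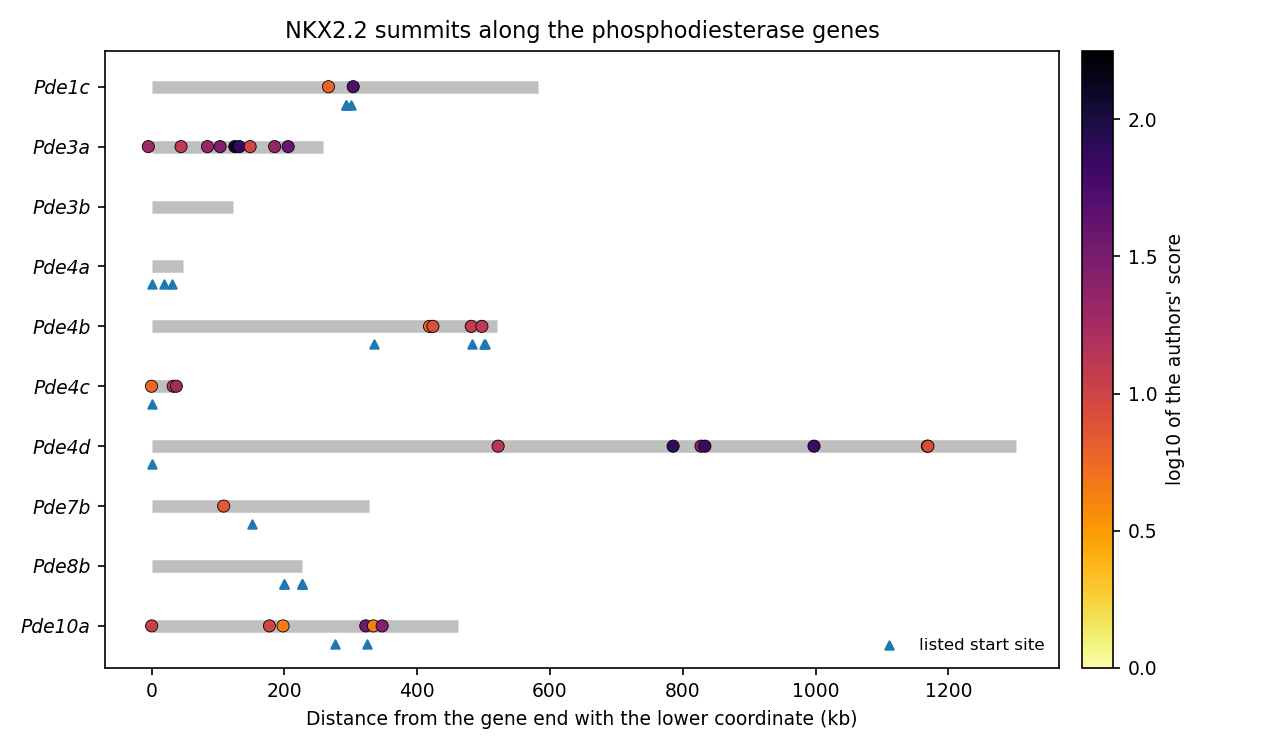
Summits along the 10 phosphodiesterase genes. Each grey bar is a gene drawn to scale in kb from the end with the lower coordinate, each circle a summit coloured by the log10 of the authors' score, and each blue triangle a start site listed in the RefSeq promoter table. The 9 Pde3a summits spread over the gene, the 7 Pde4d summits leave the stretch before 521.9 kb empty, and Pde3b, Pde4a and Pde8b carry no circle.

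Gene length was taken into account by setting each gene against the 200 protein-coding genes nearest to it in length. Pde3a (257.6 kb) had more summits than 99.5% of its length group, whose mean was 0.950 ± 1.58 (SD over the 200 genes). The only gene of that group with at least as many was Ralgapa2, with 11. Pde4c, at 27.4 kb a short gene, had more than 99% of a group with a mean of 0.385. None of its 3 summits lay inside the gene, and Pde4c was the nearest protein-coding gene for only 1. Pde4d (1302 kb) exceeded 98% of its group, with a mean of 1.22, and Pde10a (461.5 kb) exceeded 97.5%, with a mean of 1.03. The match in length was loose for Pde4d, whose group ran from 535.8 to 2390 kb. As Pde4d ranks 22 by length, most of that group was shorter. The Pde4c group ran only from 26.9 to 27.8 kb.

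The other genes stood closer to their length groups. Pde4b (519.9 kb) had more summits than 91.5% of its group and Pde1c (582.7 kb) more than 76.5%. The single summit of Pde7b (328 kb) was close to its group's mean of 1.09, and 50.5% of that group had a summit. For the genes without one, 35% of the length group of Pde3b, 24% of that of Pde4a and 42.5% of that of Pde8b had a summit, so most genes of these lengths also lacked one. Summed over the 10 genes, the group means came to 8.39 summits, beside the 32 found. The genes were picked with their counts known. Neither this sum nor the standing of any gene in its length group is therefore evidence of an excess.

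**Figure D2:**
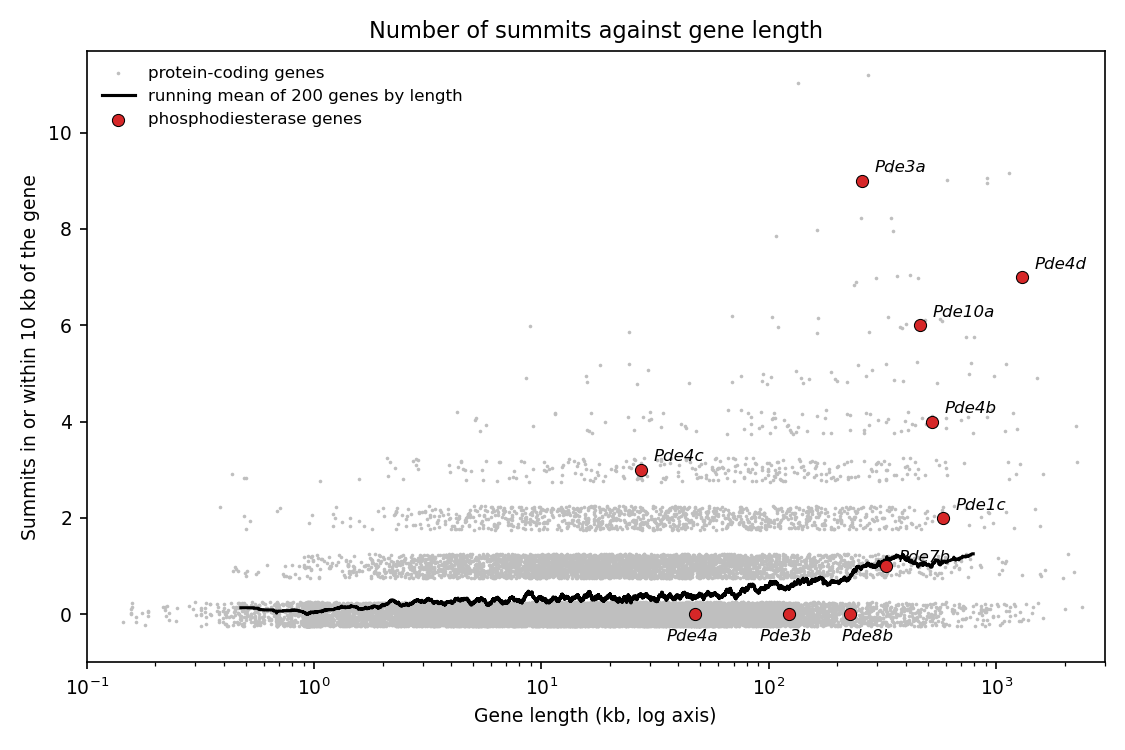
Number of summits in or within 10 kb of each protein-coding gene against gene length in kb (log axis). Grey points are all protein-coding genes, shifted slightly up or down at random so that they can be told apart, the black line is the running mean over 200 genes ordered by length, and red points are the 10 phosphodiesterase genes. Pde3a, Pde4d, Pde10a and Pde4c lie far above the line, Pde7b lies on it, and Pde3b, Pde4a and Pde8b lie below it.

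The PDE3 genes were the most unequal pair. Pde3a (gene ID 54611, GRCm38 chr6:141249269-141506862) encodes the PDE3 form known from heart, platelets and oocytes. Its highest summit, at position 141374598, had a score of 121.6 and ranked 284 of 7384. The score is the authors' value for each peak, read as the −log10 of its q-value against input. The next summit along the gene, at 141381420, lay 6.82 kb away with a score of 72.2, and together they mark the middle of the gene, at 48.7% and 51.3% of its length. The summits at 141454870, 141352466, 141434621 and 141333438 had scores of 38.6, 27.3, 22.2 and 21.4. The weakest were at 141293576 (score 12.4) and 141397667 (score 9.79). The ninth lay 4.92 kb outside the gene at 141244345, with a score of 19.0 and 422 bp from the lncRNA gene Gm28523. Every gap between neighbouring Pde3a summits was between 6.82 and 49.2 kb. With its 10 kb flanks Pde3a held 32.4 summits per Mb, against 7 per Mb in the 1 Mb on either side. The same comparison gave 63.4 against 12.5 at Pde4c, 12.5 against 2 at Pde10a, 7.41 against 1.5 at Pde4b and 5.30 against 2 at Pde4d. At the other genes the density was lower than on either side, 3.32 against 7 at Pde1c, 2.87 against 5.5 at Pde7b, and 0 against 3, 11.5 and 5.5 at Pde3b, Pde4a and Pde8b. The Pde4c value rests on 3 summits around a short gene. All of them lay in its flanks, and Pde4c was the nearest protein-coding gene for only 1. As the genes were picked with their summits known, these densities are descriptions only.

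Pde3b (gene ID 18576, GRCm38 chr7:114415222-114537938) encodes the PDE3 form known from fat cells and beta cells, where it lies in the insulin signalling path. It had no summit, and the nearest one was 92.0 kb from the gene, with a score of 24.5. A missing summit says only that no peak passed the authors' threshold there. Pde3a and Pde3b have no entry in the promoter table used here.

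The PDE4 genes encode the cAMP-selective enzymes that the drug rolipram inhibits, and 3 of the 4 had a summit, 14 summits in all. Pde4d (gene ID 238871, GRCm38 chr13:108654177-109955969) had 7, every one inside the gene and none within 130 kb of its ends. The scores at positions 109439653, 109487497 and 109651889 were 78.8, 67.0 and 65.5, which ranked them 485, 608 and 626. The others were at 109481654 (score 26.0), 109822595 (22.2), 109176085 (13.5) and 109823417 (8.63). The summit at 109439653 also fell in the lncRNA gene Gm32703. The last pair in position, 109822595 and 109823417, lay 822 bp apart. The summits were unevenly spread over Pde4d. The stretch of 521.9 kb after its listed start was empty, and 4 summits fell between 785.5 and 997.7 kb from that start. Pde4d ranks 22 by length among the protein-coding genes.

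Pde4b (gene ID 18578, GRCm38 chr4:102087332-102607275) had 4 summits. They lay at 102505872 (score 5.38), 102511074 (8.21), 102568743 (12.0) and 102584814 (12.2), all under the median of 13.7 over the list. All 4 were in the last 20% of the gene, which is transcribed from the plus strand. The last pair lay shortly upstream of listed internal starts, 1.32 kb before the start at 102570060 and 2.74 kb before the one at 102587558. The summit at 102568743 also lay in the lncRNA gene Gm52667, 683 bp from its listed start.

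Pde4c (gene ID 110385, GRCm38 chr8:70723835-70751186) had no summit inside the gene and 3 in its flanks. One, with a score of 5.89, lay at 70723585, 479 bp upstream of the listed start. It was also inside the lncRNA gene Gm34255, 384 bp from that gene's listed start. The protein-coding genes Iqcn and Gm3336 were within 10 kb of it. The other 2, at 70756384 (score 12.7) and 70761059 (score 18.7), lay 5.20 and 9.87 kb beyond the far end and closer to other genes. The first of them was inside Rab3a, which encodes a small GTPase of secretory vesicles. The second was 56 bp from the listed start of the lncRNA gene 6330537M06Rik, beside Mpv17l2. Ifi30 was within 10 kb of both, and Pik3r2 of the second. Counted only where Pde4c was the nearest protein-coding gene, it kept 1 summit.

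Pde4a (gene ID 18577, GRCm38 chr9:21165700-21213248) had no summit. The nearest was 74.8 kb away, with a score of 10.2.

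Among the remaining families, Pde10a (gene ID 23984, GRCm38 chr17:8525187-8986648), known from the striatum of the brain, had 6 summits, all inside the gene. The highest, at 8847783 with a score of 35.4, lay 2202 bp upstream of the listed internal start at 8849985, and the next highest, at 8872420 with a score of 28.2, lay 22.4 kb downstream of that start. Another, with a score of 10.8 at 8525267, lay 80 bp inside the end where the annotated gene begins. The remaining summits were at 8702686 (score 9.98), 8723173 (4.55) and 8859270 (4.39). A further 2 summits lay outside the 10 kb limit, 18.9 and 37.1 kb before the gene, with scores of 16.8 and 12.0. They were the nearest to falling in from outside at any of the 10 genes, and the Pde4c summit at 9.87 kb was the nearest to the limit from within.

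Pde1c (gene ID 18575, GRCm38 chr6:56069798-56652510) encodes an enzyme with high affinity for both nucleotides. It had a strong and a weak summit. The strong one, at 56373440 with a score of 53.3 and rank 816, lay inside the gene, 3.81 kb upstream of the listed internal start at 56369634. It was also inside the lncRNA gene Gm34753, 3533 bp from that gene's listed start. The weak one, at 56336214 with a score of 6.16, lay 26.2 kb downstream of a listed internal start. Pde7b (gene ID 29863, GRCm38 chr10:20397052-20725078), a cAMP-selective enzyme insensitive to rolipram, had 1 weak summit at 20505583, with a score of 7.05. That summit lay 42.7 kb downstream of the only listed start, which is internal to the gene. Pde8b (gene ID 218461, GRCm38 chr13:95024105-95250401), which encodes a cAMP-selective enzyme that resists the general inhibitor IBMX, had none within 461.2 kb. For each of the other 9 genes a summit lay closer. Pde8b and Pde4d lie on the same chromosome.

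**Figure D3:**
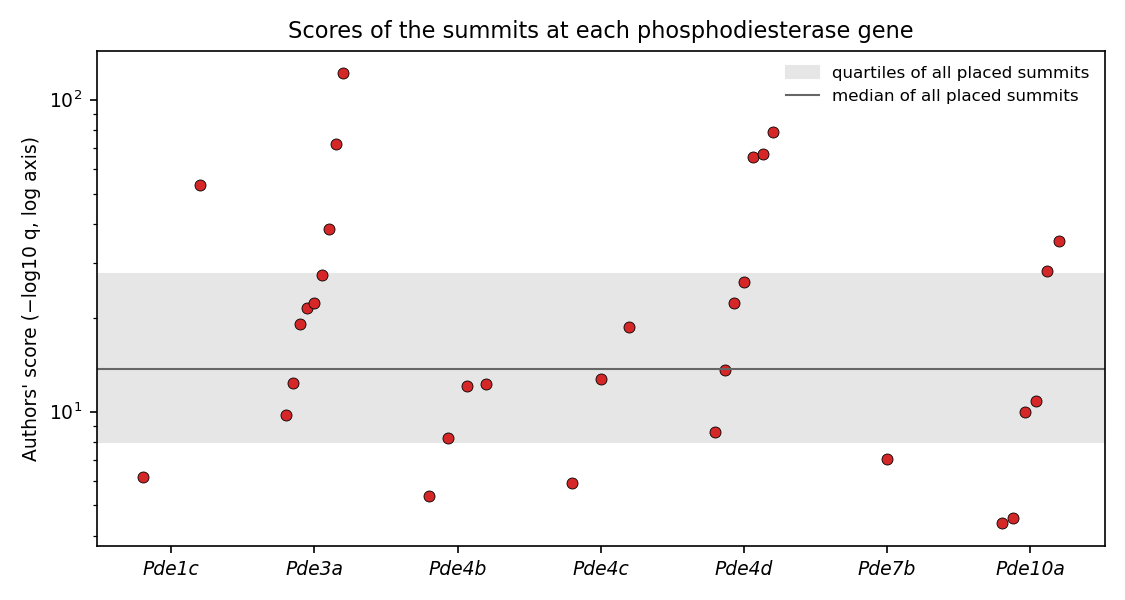
Authors' scores (−log10 q, log axis) of the summits at each of the 7 phosphodiesterase genes that had one. Each red point is a summit, ordered by score within a gene, the grey line is the median of all placed summits (13.7) and the grey band runs from their lower to their upper quartile (7.98 to 27.7). Pde3a and Pde4d hold 5 of the 6 points above a score of 50, and all 4 Pde4b points lie under the grey line.

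As a group, the 32 summits had scores near those of the list. Their median was 16.1, against 13.7 for all placed summits. Scores of 50 or more belonged to 6 of them (18.8%, against 12.0% of placed summits), 3 at Pde4d, 2 at Pde3a and 1 at Pde1c. A score of 100 or more belonged to 1, at Pde3a (3.12%, against 5.08%). Scores under 10 belonged to 10 of them (31.2%, against 35.1%).

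Most of the 32 summits were deep inside the genes. Of these, 27 lay inside over 1 kb from either gene end, 2 lay within 1 kb of an end (at Pde4c and Pde10a), and 3 lay farther outside (1 at Pde3a and 2 at Pde4c). Within 1 kb of a listed start of any gene lay 3 of them (9.38%), against 29.0% of all placed summits. Within 5 kb lay 9 of them (28.1%), against 38.8%. Pde3a, with 9 of the 32 summits, has no listed start, and the annotated beginnings of Pde10a, Pde4b, Pde1c and Pde7b are not listed either. Summits at such starts are not counted, so both shares of the 32 can be too low. For 29 of the 32, no other protein-coding gene came within 10 kb, and the exceptions were the 3 at Pde4c. The placed summits as a whole were not counted in these 2 ways, and most of the span searched lies inside the genes. Neither the 27 nor the 29 can therefore be read as a trait of these summits. An annotated noncoding gene lay at or within 1 kb of 8 of them (25%), against 17.6% of placed summits, and all 8 such genes were lncRNAs. The 32 summits were also close to one another. The median distance to the next summit was 17.6 kb, against 40.3 kb over the list, as follows in part from choosing genes with many summits. Whether a summit fell in an exon or an intron was not resolved, since the gene tables used here give no exons.

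The starts with a summit nearby were then examined in sequence. The promoter table lists 20 distinct starts for 8 of the 10 genes, some with overlapping windows at Pde8b, and it does not hold every start of each gene. A summit lay within 5 kb of 5 of these starts, at 4 genes, and in each case it was upstream of the start. The next nearest start, at 102589843 in Pde4b, had its summit 5.03 kb away. No summit fell within the printed windows themselves, which run from 250 bases before to 50 after a start. The 5 windows are shown because they are the only listed starts of these genes that close to a summit. They are RefSeq sequences of GRCm38.p6, written 5′ to 3′ on the strand of the gene. Capitals mark AAGTG, the core of NKX2 sites, and CACCC, found in sites of KLF factors, each on either strand (CACTT and GGGTG on the other). No KLF factor was profiled in these samples. Another motif, TGACG from the cAMP response element, was also marked on either strand but has no match in these 5.
Pde4c (chr8:70723814-70724113, plus strand): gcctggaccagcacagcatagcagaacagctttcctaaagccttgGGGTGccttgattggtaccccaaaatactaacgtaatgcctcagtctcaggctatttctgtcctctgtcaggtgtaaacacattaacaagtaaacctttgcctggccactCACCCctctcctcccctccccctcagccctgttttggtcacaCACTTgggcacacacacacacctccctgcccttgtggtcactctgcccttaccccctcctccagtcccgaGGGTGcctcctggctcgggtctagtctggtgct
Pde4b (chr4:102569810-102570109, plus strand): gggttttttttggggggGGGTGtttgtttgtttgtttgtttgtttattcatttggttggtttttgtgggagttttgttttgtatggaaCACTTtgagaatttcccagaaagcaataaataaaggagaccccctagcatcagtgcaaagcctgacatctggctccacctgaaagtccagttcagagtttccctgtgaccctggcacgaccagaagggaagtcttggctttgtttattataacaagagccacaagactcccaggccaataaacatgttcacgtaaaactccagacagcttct
Pde4b (chr4:102587308-102587607, plus strand): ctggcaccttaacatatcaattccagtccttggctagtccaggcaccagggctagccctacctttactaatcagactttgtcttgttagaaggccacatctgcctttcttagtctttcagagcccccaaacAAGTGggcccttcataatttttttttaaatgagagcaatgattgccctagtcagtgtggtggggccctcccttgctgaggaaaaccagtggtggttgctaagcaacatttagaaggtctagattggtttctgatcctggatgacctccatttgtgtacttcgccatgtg
Pde10a (chr17:8849735-8850034, plus strand): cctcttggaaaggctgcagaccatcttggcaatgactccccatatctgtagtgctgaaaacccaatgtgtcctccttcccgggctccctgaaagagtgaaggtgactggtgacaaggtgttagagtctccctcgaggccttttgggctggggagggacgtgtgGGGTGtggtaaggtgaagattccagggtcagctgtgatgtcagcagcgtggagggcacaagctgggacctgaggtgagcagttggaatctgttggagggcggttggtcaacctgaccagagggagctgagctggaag
Pde1c (chr6:56369585-56369884, minus strand): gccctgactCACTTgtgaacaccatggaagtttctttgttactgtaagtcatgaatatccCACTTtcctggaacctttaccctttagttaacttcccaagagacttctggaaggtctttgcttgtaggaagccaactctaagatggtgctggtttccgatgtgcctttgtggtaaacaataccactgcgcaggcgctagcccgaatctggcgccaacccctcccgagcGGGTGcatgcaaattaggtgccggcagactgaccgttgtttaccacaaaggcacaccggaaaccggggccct

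In the Pde4c window the NKX2 core began 53 bases before the start, with KLF cores at -205, -95 and +18, where +1 is the start itself and a position is that of the first base of the match. The first Pde4b window had an NKX2 core at -162 and a KLF core at -233, and the second had an NKX2 core at -119 and no KLF core. The Pde10a window had no NKX2 core and 1 KLF core, at -87. The Pde1c window had NKX2 cores at -241 and -190 and a KLF core at -22. Over all 20 windows of these genes, 11 held the NKX2 core, 17 the KLF core and 3 the cAMP response core. Of 32851 promoter windows in the table, 46.4% held the NKX2 core, 57.5% the KLF core and 20.8% the cAMP response core. Matches to motifs this short are common, and the windows differed in base composition: GC content ran from 43.3% (Pde4b, first window) to 56.7% (Pde10a) over the 5 windows, with a median of 52.7% over the table. These matches describe the letters of the windows, which lie beside the summits and not under them.

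The rest of the pathway was counted on 9 lists of 69 genes, of which 26 (37.7%) had a summit, against the 25.8% of all protein-coding genes given above. Genes of the same lengths had a summit in 34.1% of cases, or 23.5 of the 69, so the total was near that of its length groups. Among the 11 other catalytic phosphodiesterases, 3 had one. Pde11a, which takes both nucleotides, had 1 with a score of 15.0. Pde8a, the close relative of Pde8b, had 2 with a highest score of 7.05, and Pde6c, of cone photoreceptors, had 2 with a highest score of 6.45. Genes of the same lengths had a summit in 35.4% of cases, which comes to 3.90 of the 11. Pde1a, Pde1b, Pde2a, Pde5a, Pde6a, Pde6b, Pde7a and Pde9a had none. Of the 3 genes for small PDE6 subunits, Pde6d had 1, with a score of 8.20.

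Upstream of cAMP stand the cyclases and the G proteins. Of 10 adenylyl cyclase genes, 2 had a summit, Adcy1 (score 7.37) and Adcy5 (8.75), and genes of the same lengths had one in 36.2% of cases. Of 8 guanylyl cyclase genes, only Npr2, a natriuretic peptide receptor, had one (score 19.5), against 33.2% of genes of the same lengths. Of 7 G protein alpha subunit genes, 4 had a summit, against 30.9% of genes of the same lengths. Differences between these lists were left untested. Gnaz, which encodes an inhibitory subunit, had 2, the higher within its body at chr10:74991006 (score 120.1). This is close to the highest score at Pde3a. Gnao1 had 2 with a highest score of 16.8, Gnai2 had 1 (11.1), and Gnas, whose product stimulates adenylyl cyclase, had 1 (6.32).

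Downstream of cAMP, 7 of 9 protein kinase A genes had a summit, where genes of the same lengths had one in 34.4% of cases. For stricter rules, shares at the same lengths were not counted, and those of all protein-coding genes are given. Only 3 of the 9 (33.3%), Prkacb, Prkar1b and Pkig, had a summit in the gene body, against 13.4% of all protein-coding genes. A summit with a score of at least 5 lay at 4 of the 9 (44.4%), against 23.7% of all protein-coding genes. The highest was inside Pkig, an inhibitor of the kinase, at chr2:163722732 (score 64.1). The catalytic subunit gene Prkaca had 1 outside the gene (score 34.7) and Prkacb had 1 (4.24). Of the regulatory subunit genes, Prkar2a had 1 (21.1), Prkar1b had 3 with a highest score of 14.4, and Prkar2b had 1 (3.45), while Pkia, another inhibitor, had 1 (4.20). Apart from Prkar1b these were single summits, unlike the runs at Pde3a and Pde4d.

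Of the 4 genes for EPAC and cyclic GMP dependent kinases, Rapgef4, which encodes the EPAC form of islets and brain, had 3 summits, the highest with a score of 88.2. Genes of those lengths had a summit in 38.4% of cases. Of the 11 kinase anchor genes 5 had one, against 37.2% (4.09 of 11) by length: Akap6 (2, highest score 53.0), Pde4dip (2, 10.9), Sphkap (1, 9.22), Akap13 (1, 3.95) and Akap1 (1, 2.22). Pde4dip encodes a protein that binds PDE4D. Of the 6 CREB family genes, which act in the nucleus, the coactivator genes Crtc2 (score 15.1) and Crtc3 (11.8) had 1 each, against 28.2% of genes of the same lengths. No gene on the 9 lists had more than 3 summits, a number that Pde3a, Pde4d, Pde10a and Pde4b exceeded. Gene length differs between them, and the difference between the lists was not tested.

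**Figure D4:**
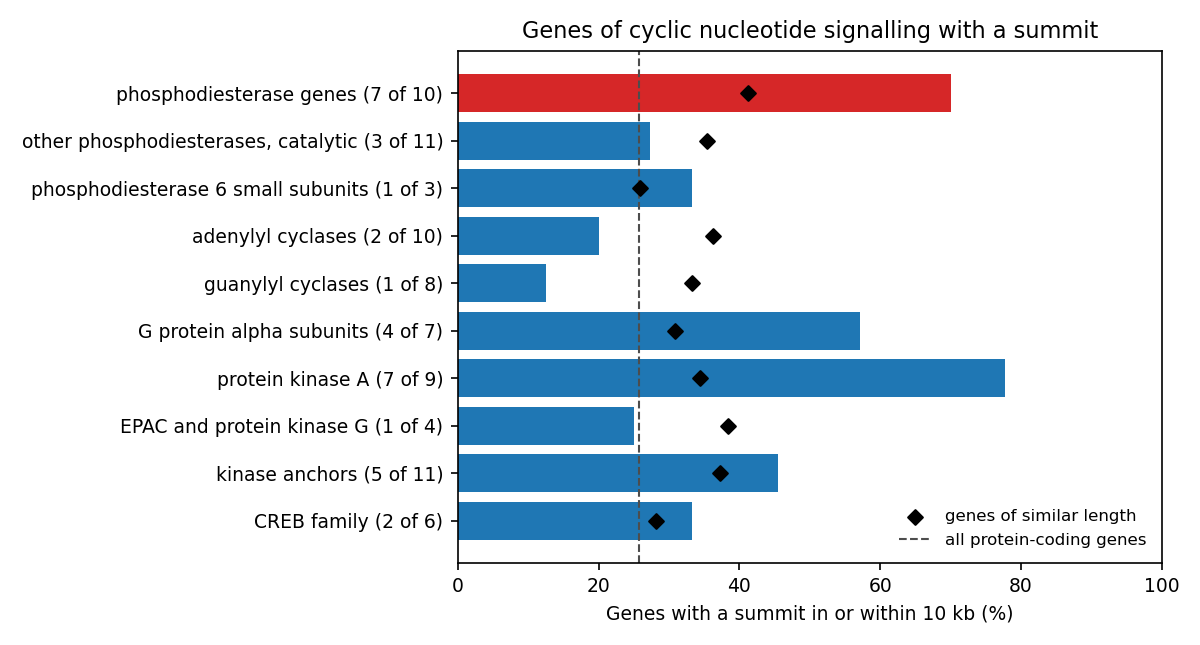
Percentage of genes with a summit in or within 10 kb, for the 10 phosphodiesterase genes (red) and 9 lists of cyclic nucleotide signalling genes (blue), with the number of genes beside each name. Diamonds give the mean percentage among the 200 genes nearest in length to each gene of the list, and the dashed line that of all protein-coding genes (25.8%). The bars for protein kinase A (7 of 9) and the red bar (7 of 10) are the longest, and those for adenylyl (2 of 10) and guanylyl cyclases (1 of 8) lie left of the dashed line.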

How the data were processed

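NKX2.2 ChIP and input DNA from alphaTC6 cells (2 samples each) were sequenced, and the outcome is 1 peak summit list. MACS2 was the peak caller per the labels' design text. Bowtie2, FastQC and the build mm10 (GRCm38) are named without versions in the submitters' processing notes. Duplicate handling, pooling of replicates and depth are not given in the sources used here. The deposited value per summit is taken as −log10 of the q-value, as the MACS2 summit format has it.

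Summit positions were written as start plus 1 and compared with RefSeq genes and promoter windows of GRCm38.p6. All 10 genes and all 69 pathway genes matched by symbol. Genes of similar length are the 200 protein-coding genes nearest in log length. Members and lists were chosen with earlier results of these data known, so no test was run. All members, and every pathway gene with a summit, were named. Alternatives covered score minimums, distances, merging, nearest-gene assignment, the length group and the motif window. Counting was tested on planted summits. Python 3.11.15, numpy 2.4.6, pandas 2.3.3 and matplotlib 3.10.9 were used.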

Additional observations from a re-analysis of the deposited data

How the results depend on the processing

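No paired analysis was possible because summits carry 1 value for the whole series, which also prevented leaving out a replicate. Under the 7 alternatives for score, distance, merging and assignment, 6 or 7 of the 10 genes had a summit. The share of all protein-coding genes with a summit ran from 13.4% (gene body only) to 43.8% (within 50 kb). That share was not counted for nearest-gene assignment. The number of summits at the 10 genes ran from 22 (score of at least 10) to 35 (within 50 kb). The number of summits over 1 kb inside a gene stayed at 27 with boundaries of 500 bp and 5 kb. Pde3a, Pde4c, Pde4d and Pde10a exceeded at least 95% of their length group under all 4 other choices of that group. These choices changed only the genes compared, and the counts stayed those known when the genes were picked. With genes of the same chromosome, the Pde4d group had a mean of 0.56 in place of 1.22. That is the mean of the group of the much shorter Pde8b (226.3 kb), so this choice matched Pde4d poorly in length. The standing was not recomputed for the other distances, score minimums or nearest-gene assignment. At a score of at least 10, 14 of the 69 pathway genes had a summit in place of 26. That is 20.3%, against 18.2% of all protein-coding genes at that score. Left were 0 of 10 adenylyl cyclases, 1 of 11 other catalytic phosphodiesterases and 2 of 11 kinase anchors. So were 4 of 9 protein kinase A genes, 3 of 7 G protein alpha subunit genes and 2 of 6 CREB family genes. Of the smaller lists, 1 of 4 EPAC and protein kinase G genes, 1 of 8 guanylyl cyclases and 0 of 3 small PDE6 subunit genes were left. At the same score Pde7b had none, Pde1c 1, Pde4b 2 and Pde10a 3. Pde4c had 0 in the gene body and 1 within 5 kb or as the nearest gene. In the 100 bases nearest the start, 3 of the 20 windows held the NKX2 core, as fewer bases were searched, against 18.45% of all windows. Of 49 counts at the 7 genes with a summit, 42 stayed within 1.5 times. Unknown depth limits what a missing summit shows.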
